A study of Mus musculus with 4 samples.

Results

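The 9 genes described here encode the cytochrome P450 enzymes Cyp2f2, Cyp2a5, Cyp2b10, Cyp4b1, Cyp2s1 and Cyp26b1, the flavin-containing monooxygenases Fmo1 and Fmo2, and Por, the reductase that passes electrons to microsomal P450 enzymes. They were chosen by name as oxidising enzymes of mouse lung and their reductase, with earlier results of these data known and not by level. All 9 were found among the 32285 genes counted in each section. Lung cryosections of 4 mice were profiled on Visium slides, on which RNA is captured in barcoded spots and counted as unique molecular identifiers (UMIs). A spot covers several cells, so levels are given for spots rich in the transcripts of a cell type and not for cells. The groups were Vaped (V) and Non-Vaped (NV) mice, with 1 male and 1 female in each, and each section was treated as the replicate. All were C57BL/6J mice. V mice were exposed from 6 to 8 wk of age to e-vapor of a Peach Ice flavoured ORGNX liquid of vegetable glycerin and propylene glycol, made by JUUL pens in a whole-body chamber, for 4 h per day on 5 d per week over 9 wk, and NV mice were not vaped. The labelled tissue was the upper pulmonary branches. Levels are in CPM, a gene's share of all UMIs of the section, or of the spots summed, scaled to a common total.

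P450 enzymes insert oxygen into fat-soluble compounds with electrons delivered by Por, which makes many compounds easier to excrete and turns some, such as naphthalene, into reactive products. Flavin-containing monooxygenases oxidise the nitrogen and sulfur atoms of drugs and draw their electrons directly from NADPH, without Por. In mouse lung the club cells of the conducting airways, marked by the secretoglobin Scgb1a1, are known for their P450 content, while type 2 cells (Sftpc), type 1 cells (Ager) and endothelium (Cldn5) line the alveoli.

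Cyp2s1, Cyp2b10, Cyp2a5 and Cyp2f2 lie in 1 cluster of 13 coding Cyp2 genes on chromosome 7 (25802475 to 27158668, GRCm38), and Fmo1 and Fmo2 are neighbours in a cluster of 5 Fmo genes on chromosome 1 (162793188 to 162984528). The 4 genes held 75581 of the 75597 UMIs of the Cyp2 cluster over the 4 sections, and 5 of its genes had no UMI. Fmo1 and Fmo2 held 58581 of the 60044 UMIs of the Fmo cluster. Cyp2f2 spans 27119909 to 27133660 and Cyp2a5 26835305 to 26843548, both on the plus strand of chromosome 7. Cyp2b10 spans 25897620 to 25926624 on the plus strand and Cyp2s1 25802475 to 25816913 on the minus strand of the same chromosome. Cyp4b1 spans chromosome 4, 115624725 to 115647723, and Cyp26b1 chromosome 6, 84571414 to 84593908, both on the minus strand. Fmo1 (162829561 to 162866610) and Fmo2 (162874317 to 162898726) are on the minus strand of chromosome 1, and Por spans chromosome 5, 135670033 to 135735326, on the plus strand.

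The bases before the start sites are shown for 2 genes that followed Scgb1a1 over spots, Cyp2f2 and Cyp2a5. They are also shown for 2 that correlated with alveolar markers over spots, Cyp4b1 and Fmo2. These reached the highest r with Sftpc in any section (0.49), but neither was called different between airway-rich and alveolar-rich spots, as given below. The sequences are from RefSeq promoters of GRCm38.p6, read 5′ to 3′ on the gene's strand. They end before the first transcribed base of RefSeq and GENCODE, and capitals mark matches to the motifs searched.
Cyp2f2, chr7:27119705-27119908, plus strand: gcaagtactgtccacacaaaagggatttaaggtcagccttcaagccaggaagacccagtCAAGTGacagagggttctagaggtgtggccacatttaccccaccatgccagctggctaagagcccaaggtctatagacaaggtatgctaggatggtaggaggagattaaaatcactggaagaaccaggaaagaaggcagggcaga
Cyp2a5, chr7:26835089-26835304, plus strand: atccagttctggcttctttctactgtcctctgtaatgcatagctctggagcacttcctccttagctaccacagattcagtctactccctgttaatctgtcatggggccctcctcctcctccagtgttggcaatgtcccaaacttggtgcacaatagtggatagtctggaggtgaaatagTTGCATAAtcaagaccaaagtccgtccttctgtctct
Cyp4b1, chr4:115647724-115647971, minus strand: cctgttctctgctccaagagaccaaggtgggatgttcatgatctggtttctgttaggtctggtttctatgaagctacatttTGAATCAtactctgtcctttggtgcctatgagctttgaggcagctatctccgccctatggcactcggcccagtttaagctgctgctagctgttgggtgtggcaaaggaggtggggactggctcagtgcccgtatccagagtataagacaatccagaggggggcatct
Fmo2, chr1:162898759-162899008, minus strand: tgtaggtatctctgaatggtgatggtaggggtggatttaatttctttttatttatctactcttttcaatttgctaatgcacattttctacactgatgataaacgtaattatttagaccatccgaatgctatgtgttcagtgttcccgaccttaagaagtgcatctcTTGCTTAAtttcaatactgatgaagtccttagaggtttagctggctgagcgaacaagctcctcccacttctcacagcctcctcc

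The motifs searched on both strands were TTGCNNAA (C/EBP type), TGTTTAC (FOX type), CAAGTG (NKX2-1 type), TGANTCA (AP-1 type), GCGTG (AhR type) and TATAAA, for the TATA box. The capitals in Cyp2f2 are an NKX2-1-type match, those in Cyp2a5 and Fmo2 are C/EBP-type matches, and those in Cyp4b1 are an AP-1-type match. Over the 250 bases before all 32851 RefSeq starts, the C/EBP-type letters were found in 9.56% of promoters, the NKX2-1-type letters in 11.6%, the AP-1-type letters in 6.75%, the FOX-type letters in 3.17%, the AhR-type letters in 28.2% and the TATA letters in 12.4%. Of the 9 genes, 8 had a promoter in the table. In these windows the C/EBP-type letters stood in 1 gene of each pair, at 71 bases before the RefSeq start of Cyp2a5 and 84 before that of Fmo2, and no motif stood in both genes of a pair. Cyp2b10 also held the C/EBP-type letters, 58 bases before its start, and the AhR-type letters, 101 and 9 bases before it. Por held the AhR-type letters at 3 places, and Cyp26b1 the TATA letters 139 bases before its start. Outside the stretches shown, Cyp2a5 held the TATA letters 29 bases before its RefSeq start. Another RefSeq start of Fmo2 had the C/EBP-type letters at 69 and the FOX-type letters at 28 bases.

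Sections held 473 to 2053 spots and 6957392 to 34308556 UMIs. The V male section stood apart from the other 3 in content. Scgb1a1 was at 259 CPM (V male), against 12429 (NV male), 2108 (NV female) and 11518 (V female). The 6 cardiac muscle markers together were at 18.2 CPM (V male) and at 3673 to 7015 CPM in the others, so that those sections held heart transcripts, and the 5 adipocyte markers were at 15.5 CPM against 213 to 1927 CPM. Sftpc was at 36068 CPM and Ager at 3134 CPM (V male), each the highest of the 4 sections. The 5 ciliated cell markers together were at 217 CPM there, with 2 of them at 0, against 259.9 to 378 CPM in the others. By these markers the V male section held alveolar and few club cell, heart or adipocyte transcripts, which goes against its tissue label, and results are given with and without it. Fewer cells of a type and less RNA per cell cannot be told apart in such sums, and sex cannot be told apart from the single mouse within a group.

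Cyp2f2, the naphthalene-activating P450 of club cells, was at 262 CPM (NV male), 99.9 CPM (NV female), 23.8 CPM (V male) and 1013 CPM (V female). Cyp2a5, which oxidises coumarin and nicotine, was at 14.4, 11.1, 1.01 and 386 CPM in the same order. Both were highest in the V female and lowest in the V male, so the V mice lay on either side of the NV mice. The group levels of Cyp2a5 were 12.7 ± 2.34 CPM in NV and 193 ± 272 CPM in V (SD, n = 2 each). Cyp2s1, an extrahepatic P450 of epithelia, showed the same order at a lower level, with 15.2 CPM (NV male), 14.8 CPM (NV female), 5.72 CPM (V male) and 29.4 CPM (V female).

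Fmo2, the main monooxygenase of lung, was at 463 CPM (NV male), 476 CPM (NV female), 1436 CPM (V male) and 432 CPM (V female). Cyp4b1, which acts on fatty acids and on lung toxicants such as ipomeanol, was at 366, 341, 1034 and 418 CPM in that order. Cyp2b10, a P450 that the receptor CAR induces in liver, was at 296, 216, 742 and 278 CPM. The V male was highest for each of these, and the 3 other sections lay close together, with 216 to 296 CPM for Cyp2b10. For Fmo2 the group levels were 469 ± 9.44 CPM in NV and 934 ± 709 CPM in V (SD, n = 2 each).

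Fmo1 was at 266 CPM (NV male), 264 CPM (NV female), 504 CPM (V male) and 254 CPM (V female), again with only the V male apart. Cyp26b1, which degrades retinoic acid, was at 22.3, 15.5, 127 and 12.8 CPM, and its V male level was 5.69 times the next highest section. Por was the most even of the 9 genes, at 256, 320, 284 and 333 CPM, and its V sections lay among its NV sections or just above them, with 288 ± 45.1 CPM in NV and 309 ± 34.6 CPM in V (SD, n = 2 each).

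**Figure D1:**
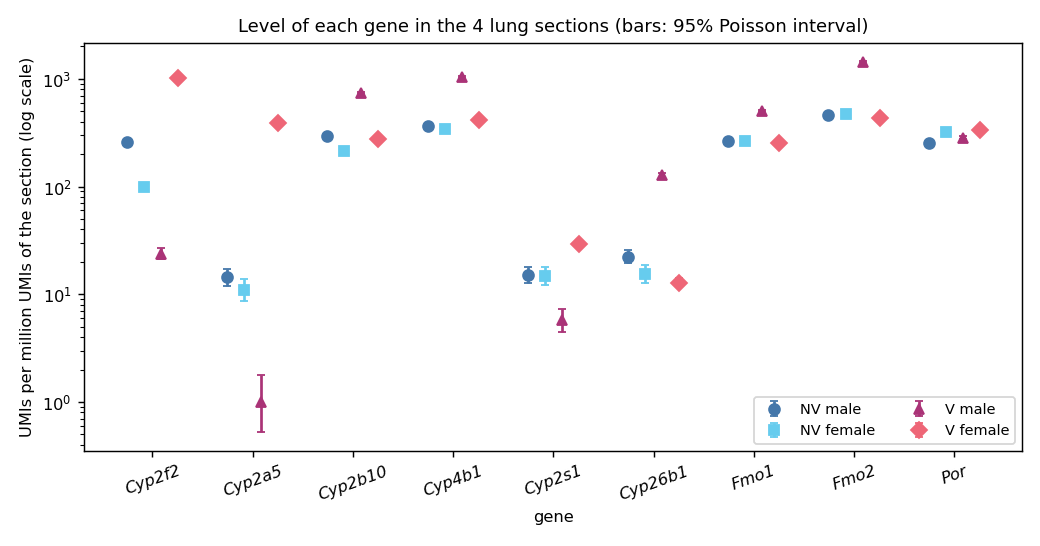
Each point is the level of a gene in 1 of the 4 lung sections, in CPM of the section on a log scale, with bars for the 95% Poisson interval, which covers counting error only. Cyp2f2, Cyp2a5 and Cyp2s1 were highest in the V female and lowest in the V male, whereas Cyp2b10, Cyp4b1, Cyp26b1, Fmo1 and Fmo2 were highest in the V male.

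To ask which genes follow the airway and which the alveoli, spots were grouped within each section by markers that are not among the 9 genes. Club-rich spots were the upper 10% by Scgb1a1. Alveolar-rich spots were the upper 50% by the ranks of Sftpc and Cldn5, without the club-rich spots. Of 12603 genes tested over the 4 sections, 129 (1.02%) were called higher and 4 (0.0317%) lower in club-rich spots, and 3 of the 9 genes were among those called higher and none among those called lower. Calls needed a log2 fold change beyond 0.25 either way and an adjusted p (Benjamini-Hochberg, edgeR's quasi-likelihood test) under 0.05.

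Cyp2f2 was at 1441 CPM in club-rich and 157 CPM in alveolar-rich spots of the NV male, and at 594 and 54.8 CPM (NV female). In the V male it was at 34.2 and 24.3 CPM, and in the V female at 4432 and 419 CPM. It was higher in club-rich spots of all 4 sections, by 9.20-fold, 10.8-fold, 1.41-fold and 10.6-fold in that order. The edgeR log2 fold change was 2.98 (SE 0.32, adjusted p = 8.962e-05).

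Cyp2a5 was at 75.7 CPM in club-rich and 6.99 CPM in alveolar-rich spots of the NV male, at 138 and 6.14 CPM (NV female), and at 1957 and 129 CPM (V female). In the V male these levels rested on 5 and 3 UMIs. Its difference was larger than that of Cyp2f2, at a log2 fold change of 3.98 (SE 0.17, edgeR adjusted p = 1.315e-08), and it was higher in club-rich spots of 4 of 4 sections. The difference between the 2 genes was not tested.

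Cyp2s1 was at 45.9 CPM in club-rich and 10.8 CPM in alveolar-rich spots of the NV male, at 47.0 and 12.3 CPM (NV female) and at 83.4 and 19.6 CPM (V female). In the V male it was lower in club-rich spots, at 4.15 against 6.44 CPM, on 4 and 36 UMIs. Its log2 fold change was 1.90 (SE 0.26, edgeR adjusted p = 0.0009435), but with the upper 20% of spots as club-rich it was 1.35 (adjusted p = 0.0514) and no longer called. The club-rich spots of the V male held only 913 CPM of Scgb1a1, less than the alveolar-rich spots of the other 3 sections (1063 to 7871 CPM). Without the V male 372 genes were called in place of 133, without the V female 19 and without the NV male 255, and the calls of Cyp2f2, Cyp2a5 and Cyp2s1 were made with each section left out.

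The other 6 genes were not called. Cyp4b1 had a log2 fold change of 0.00 (SE 0.10, edgeR adjusted p = 1) between club-rich and alveolar-rich spots and Cyp2b10 one of -0.05 (SE 0.12, adjusted p = 0.9454). For Fmo2 it was -0.20 (SE 0.10, adjusted p = 0.4594) and for Fmo1 -0.23 (SE 0.12, adjusted p = 0.4949). Por had 0.35 (SE 0.16, adjusted p = 0.3961), with 481 CPM in club-rich and 325 CPM in alveolar-rich spots of the NV female and 551 and 316 CPM (V female), but 273 and 287 CPM (NV male). Cyp26b1 had 0.33 (SE 0.20, adjusted p = 0.572), and its direction differed between sections. The median over the 9 genes was 0.33 and that over all genes tested 0.00.

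**Figure D2:**
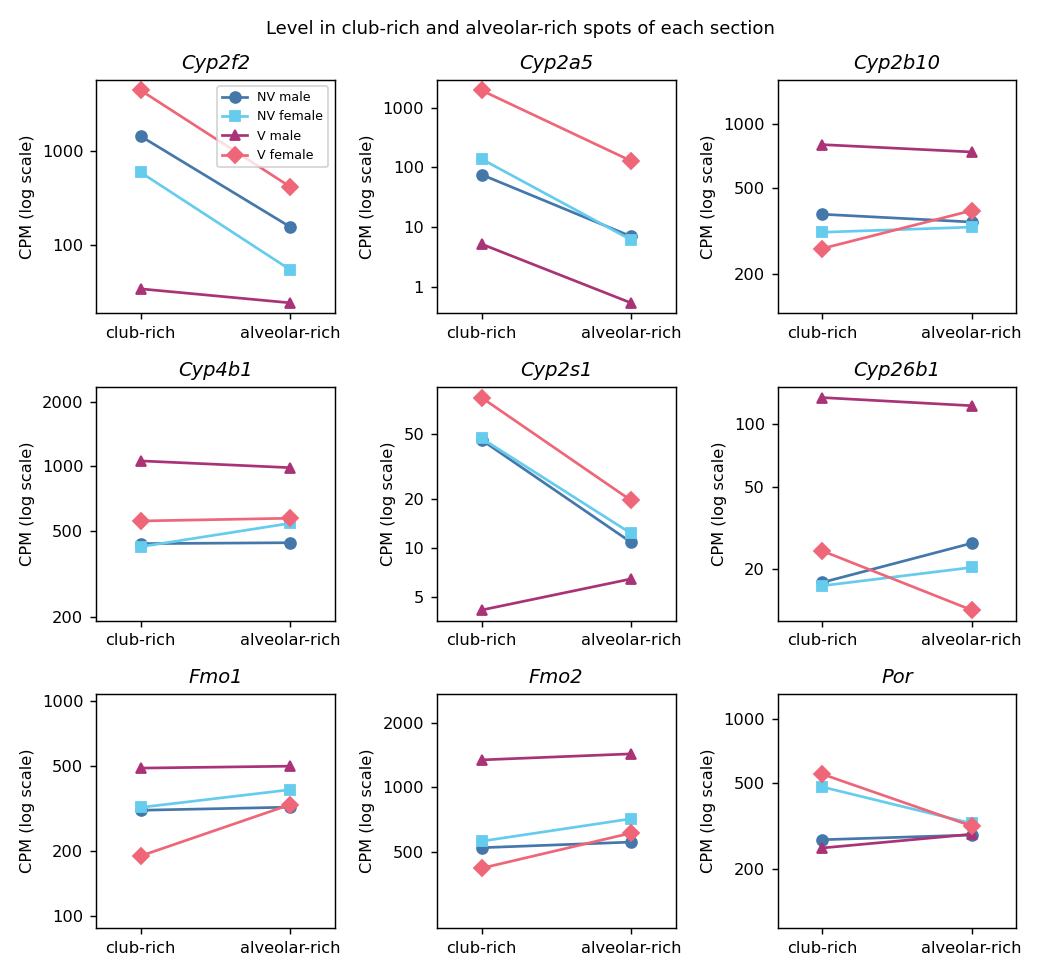
Each panel shows the level of a gene in club-rich and alveolar-rich spots (CPM, log scale), with a line joining the values of 1 section. Cyp2f2, Cyp2a5 and Cyp2s1 fall from club-rich to alveolar-rich spots in both NV sections and the V female, while the V male stays low. The other 6 genes share no direction, and in the V female Por was 551 against 316 CPM and Cyp2b10 262 against 394 CPM. Of these 6, Fmo1 and Fmo2 were lower in club-rich spots of every section, though not called.

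Over single spots, genes were also set against marker genes, as a description without a test. In the 3 sections other than the V male, the correlation over spots with Scgb1a1 was 0.22 to 0.60 for Cyp2f2, 0.20 to 0.54 for Cyp2a5 and 0.18 to 0.27 for Cyp2s1, and with Sftpc it was at most 0.12 for these 3 genes. Correlations with Sftpc were 0.42 to 0.49 for Fmo2, 0.38 to 0.49 for Cyp4b1, 0.31 to 0.43 for Cyp2b10 and 0.25 to 0.42 for Fmo1. With Ager they were 0.44 to 0.51 for Cyp2b10 and 0.38 to 0.47 for Cyp4b1. Fmo2, Cyp4b1, Cyp2b10 and Fmo1, which were not called between club-rich and alveolar-rich spots, also had an r of 0.15 to 0.33 with Scgb1a1 in the NV sections. In the V male the highest value of any gene with any marker was 0.16. Spots of a section share a library and differ in depth, and r with the log10 UMIs of the spot was -0.12 to 0.33 for the 9 genes in these 3 sections. An r over sparse counts such as those of Cyp26b1 (-0.03 to 0.17) is no finding.

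**Figure D3:**
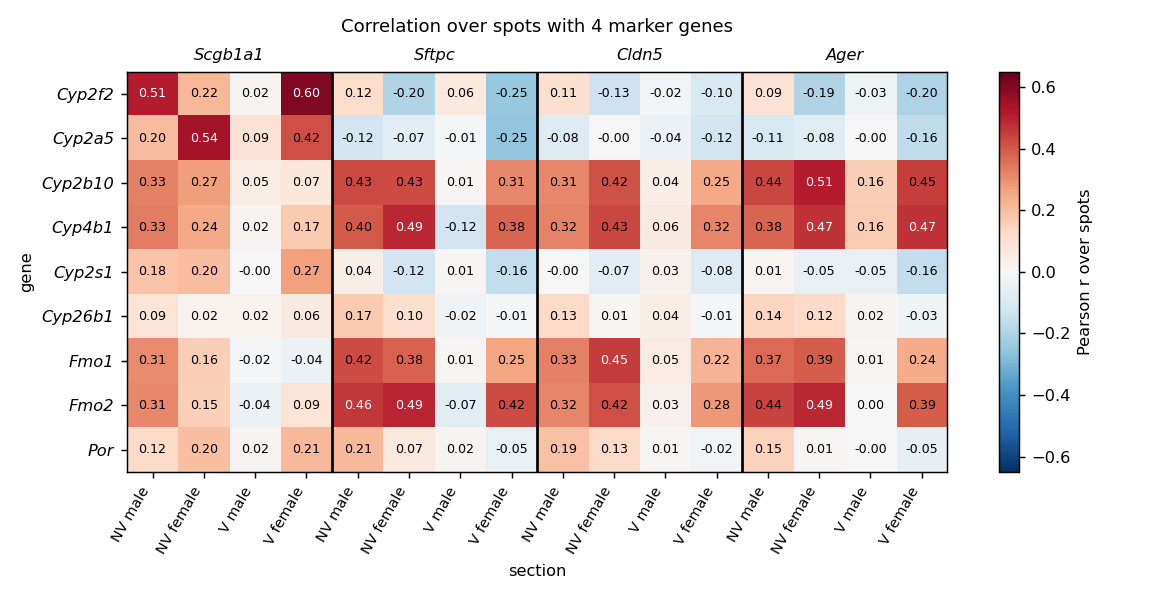
Pearson r over the spots of a section with at least 1000 UMIs, on log-scaled counts, for each gene (rows) with Scgb1a1, Sftpc, Cldn5 and Ager (blocks) in each section (columns). Cyp2f2 and Cyp2a5 are highest with Scgb1a1 and Cyp2b10, Cyp4b1, Fmo1 and Fmo2 with the alveolar markers in 3 sections, and the V male columns are near 0.

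The genes whose pattern over spots was most like each of the 9 were named by the highest mean r, among genes with at least 200 UMIs in each section, over the sections with at least 50 UMIs of the gene itself. For Cyp2f2 they were Scgb1a1 (mean r 0.34 over 4 sections), Gsto1 (0.21) and Hp (0.18), and for Cyp2a5 Scgb1a1 (0.39 over 3 sections), Cyp2f2 (0.37) and Gsto1 (0.27). Cyp2s1 had Scgb1a1 (0.16), Cyp2f2 (0.15) and Cfb (0.13). Cyp2b10 had Ager (0.39), Hopx (0.36) and Prdx6 (0.35), and Cyp4b1 Ager (0.37), Tmsb4x (0.35) and Epas1 (0.35). Fmo2 had Inmt (0.38), Tmsb4x (0.37) and Ager (0.33), and Fmo1 Epas1 (0.32), Adgrf5 (0.29) and Inmt (0.28). For Cyp2s1 no mean r was above 0.16, and Por had Slc1a5, Mgst1 and Ces1d (0.14 each) and Cyp26b1 Tm4sf1 (0.10), Rbm39 (0.097) and Ifitm2 (0.097), so that for these 3 genes the likeness is too low to read.

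With the spots of a section split into 5 equal groups by Sftpc, Cyp2b10 went from 111 CPM in the lowest to 341 CPM in the highest of the NV male, from 72.9 to 297 CPM in those of the NV female and from 145 to 365 CPM in those of the V female, but was at 769 and 765 CPM in those of the V male. Most of the step lay between the lowest group and the next, which held 371, 255 and 355 CPM in the first 3 sections.

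To compare the 2 alveolar markers, spots in the upper 10% by Sftpc were set against those in the upper 10% by Cldn5. They were drawn from all spots of a section with at least 1000 UMIs, and only spots in both groups were left out. Sftpc-rich spots were deeper in every section, with medians of 7056 to 12986 UMIs per spot against 4800 to 9147 in Cldn5-rich spots. The part of depth in the differences was not tested. Of 9664 genes tested, 154 (1.59%) were called higher and 102 (1.06%) lower in Sftpc-rich spots, and of the 8 of the 9 genes that passed the filter on low counts 2 were called lower. Cyp4b1 was at 353 CPM in Sftpc-rich and 541 CPM in Cldn5-rich spots of the NV male, at 411 and 678 CPM (NV female), at 869 and 1058 CPM (V male) and at 469 and 659 CPM (V female). It was higher in Cldn5-rich spots of 4 of 4 sections, with a log2 fold change of -0.43 (SE 0.06, edgeR adjusted p = 2.273e-06) for Sftpc-rich against Cldn5-rich spots.

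Fmo1 was at 269 and 396 CPM in Sftpc-rich and Cldn5-rich spots of the NV male, 299.7 and 418 CPM (NV female), 478 and 546 CPM (V male) and 290 and 406 CPM (V female), also higher beside Cldn5 in 4 of 4 sections. Its log2 fold change was -0.36 (SE 0.07, edgeR adjusted p = 0.000357), and DESeq2 gave -0.37 (adjusted p = 0.0575), which was not called. Fmo2 had -0.11 (SE 0.06, adjusted p = 0.48) and Por 0.19 (SE 0.07, adjusted p = 0.1814). Cyp2f2, Cyp2b10, Cyp2s1 and Cyp26b1 were not called, and Cyp2a5 did not pass the filter. The median over the 8 genes was -0.03 against 0.00 over all genes.

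Levels were also taken in spots rich in other tissues, where stray transcripts and mixed cells cannot be told apart. The upper 5% of spots by cardiac muscle markers held 3116 CPM of Scgb1a1 (NV male), 623 CPM (NV female) and 5285 CPM (V female). Cyp2f2 was at 59.9, 39.3 and 609 CPM there, and in the V female that was above its 419 CPM in alveolar-rich spots. In adipocyte-rich spots Cyp2f2 was at 275 CPM (NV male) and 98.3 CPM (NV female), above its 157 and 54.8 CPM in alveolar-rich spots. Scgb1a1 was lower in these adipocyte-rich spots, at 3902 against 7871 CPM (NV male) and 836 against 1063 CPM (NV female). In the V female the alveolar-rich level of Cyp2f2 was 1.22 times the adipocyte-rich level. Alveolar levels of Cyp2f2 and Cyp2a5 are not read as expression by alveolar cells, and their source was not tested. In the same order they were 2.61, 1.40 and 0.69 times the cardiac muscle-rich levels for Cyp2f2. For Cyp2a5 they were 1.40, 5.93 and 0.74 times, on 6 and 1 UMIs in cardiac muscle-rich spots of the NV male and NV female. The genes that correlated with alveolar markers were low in cardiac muscle-rich spots. Cyp4b1 was at 101, 107 and 157 CPM there, against 441, 543 and 574 CPM in alveolar-rich spots of the same sections. Fmo2 was at 142, 153 and 211 CPM, Fmo1 at 77.4, 67.2 and 100.1 CPM and Cyp2b10 at 99.8, 67.2 and 144 CPM. Among 10 marker-defined classes of spots, Por was highest in the adipocyte-rich spots of the NV sections, at 413 CPM (NV male) and 503 CPM (NV female) against 287 and 325 CPM in alveolar-rich spots, but in the V female it was at 279 against 316 CPM.

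In the V male these 10 classes (club, alveolar, Sftpc, Cldn5, ciliated, fibroblast, smooth muscle, mesothelium, cardiac muscle and adipocyte) differed little. Its lowest and highest levels over the classes were 1341 and 1614 CPM for Fmo2, 869 and 1061 CPM for Cyp4b1, 635 and 798 CPM for Cyp2b10 and 449 and 546 CPM for Fmo1. In the V female the same 4 genes ranged by 4.06-fold to 4.69-fold over these classes. Classes are the top spots by rank in every section, whatever the level of the markers. Cardiac muscle-rich spots held 211 CPM of their markers in the V male, against 18011 to 26895 CPM in the others. Adipocyte-rich spots held 213 CPM of theirs, against 3065 to 6141 CPM. The ranges of the V male and the V female are therefore not over like tissues.

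V mice were compared with NV mice over whole sections, in alveolar-rich spots and in club-rich spots. None of the 9 genes was called in any of the 3 comparisons, and neither was any other gene. Over whole sections 0% of 14570 genes were called in either direction, with 248 at an unadjusted p under 0.05 and 8 called by DESeq2. In alveolar-rich spots it was 0% of 13241 genes, with 369 at an unadjusted p under 0.05 and 7 by DESeq2, and in club-rich spots 0% of 10162, with 161 and 0. With 2 mice against 2, the smallest two-sided exact permutation p is 0.33.

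Over whole sections the log2 fold changes of V over NV were 4.01 (SE 2.40) for Cyp2a5, 1.76 (SE 1.05) for Cyp26b1 and 1.605 (SE 1.71) for Cyp2f2. They were 0.97 (SE 0.43) for Cyp4b1, 0.92 (SE 0.48) for Cyp2b10 and 0.91 (SE 0.56) for Fmo2. The smallest were 0.46 (SE 0.33) for Fmo1, 0.29 (SE 0.86) for Cyp2s1 and 0.09 (SE 0.28) for Por. All had an edgeR adjusted p of 0.9997. Of the 9 genes 1, Cyp4b1, was higher in both V sections than in both NV sections, as were 12.6% of all genes tested, and 0 were lower in both, as were 14.4%. Effects were of opposite sign in males and females for 6 of the 9 genes and for 50.4% of all genes tested. The median of the 9 genes was 0.92 against 0.03 for all genes.

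Alveolar-rich spots still differed in content, with 223 CPM of Scgb1a1 in the V male against 1063 to 7871 CPM and 19.3 CPM of cardiac muscle markers against 1417 to 2888 CPM in the others. In these spots Cyp2b10 was at 348 CPM (NV male), 330 CPM (NV female), 738 CPM (V male) and 394 CPM (V female). Cyp4b1 was at 441, 543, 987 and 574 CPM. Both V sections lay above both NV sections for these 2 of the 9 genes, as they did for 14.6% of all genes tested, and lay below for 0 of 9 against 17.4%. Cyp2b10 and Cyp4b1 had log2 fold changes of 0.74 (SE 0.32) and 0.67 (SE 0.29), neither called (edgeR adjusted p = 0.9983, with 0% of all genes called).

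Fmo2 was at 555, 713, 1430 and 611 CPM in these spots, Fmo1 at 321, 387, 499 and 330 CPM and Cyp26b1 at 26.6, 20.3, 123 and 12.6 CPM, with only the V male above the NV sections. Their log2 fold changes were 0.69 (SE 0.41), 0.24 (SE 0.25) and 1.495 (SE 0.99). Por had 0.00 (SE 0.18), Cyp2f2 1.08 (SE 1.22), Cyp2a5 3.33 (SE 1.82) and Cyp2s1 0.23 (SE 0.55). The type 1 cell marker Ager was at 1908, 1883, 3023 and 2668 CPM in alveolar-rich spots. Both V sections thus lay above both NV sections, as for Cyp2b10 and Cyp4b1 but not for the genes of this paragraph. Per 1000 Ager UMIs, Cyp2b10 was at 183, 175, 244 and 148 UMIs and Cyp4b1 at 231, 289, 326 and 215 UMIs. With Ager as the divisor the V female thus fell below both NV sections for each. The other alveolar markers did not share the rise of Ager in the V female. Its level over the NV mean was 1.41 for Ager, but 0.98 for Cldn5 and 0.93 for Sftpc, against 1.16 for Cyp2b10 and 1.17 for Cyp4b1. The order of the sections therefore depends on the marker chosen as divisor. The part of type 1 cell content in the differences was not tested.

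In club-rich spots the log2 fold changes of V over NV were 3.33 (SE 1.99) for Cyp2a5, 2.12 (SE 0.85) for Cyp26b1, 1.23 (SE 1.70) for Cyp2f2 and 0.12 (SE 1.07) for Cyp2s1, with an edgeR adjusted p of 0.9998 for all 9 genes. Cyp26b1 was at 17.2 CPM (NV male), 16.6 CPM (NV female), 135 CPM (V male) and 24.4 CPM (V female), higher in both V sections. The NV levels rested on 15 and 6 UMIs. Over whole sections and in alveolar-rich spots its V female level lay below both NV sections. The other 5 genes had log2 fold changes of 0.08 (Fmo1) to 0.90 (Cyp4b1), and Cyp4b1 too was higher in both V sections, as were 12.3% of all genes tested, while 0 of 9 were lower in both against 14.2%. Whether the difference between club-rich and alveolar-rich spots itself differed between V and NV was tested as an interaction, and 0% of 12603 genes were called in either direction, with 394 at an unadjusted p under 0.05.

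A single V section decided these values. Without the V male, so that the V female alone stood for the group and was assumed to vary like the NV mice, 21 genes were called over whole sections. Cyp2a5 was called higher there (log2 fold change 4.99, SE 0.25, adjusted p = 0.006276), and Cyp26b1 and Fmo2 turned to -0.50 and -0.04. In club-rich spots the V female alone gave 522 called genes, with Cyp2a5 at 4.34 (SE 0.28, adjusted p = 9.037e-15), Cyp2f2 at 2.20 (SE 0.27, adjusted p = 3.045e-07) and Cyp2s1 at 0.94 (SE 0.28, adjusted p = 0.03916). In alveolar-rich spots it gave 53, with Cyp2a5 at 4.30 (SE 0.23, adjusted p = 5.494e-07).

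Without the V female, 811 genes were called over whole sections and the V male alone showed the opposite for the club cell genes. Cyp2f2 was called lower (-3.06, SE 0.59, adjusted p = 0.037), as were Cyp2a5 (-3.78, SE 0.45, adjusted p = 0.006005) and Cyp2s1 (-1.53, SE 0.30, adjusted p = 0.03782). Cyp26b1 was called higher (2.60, SE 0.24, adjusted p = 0.002109), with Fmo2 at 1.47 (adjusted p = 0.02204), Cyp4b1 at 1.41 (adjusted p = 0.02265) and Cyp2b10 at 1.40 (adjusted p = 0.03521). In alveolar-rich spots 679 genes were called without the V female, with Cyp26b1 at 2.36 (adjusted p = 7.036e-06), Fmo2 at 1.175 (adjusted p = 0.003596), Cyp2b10 at 1.12 (adjusted p = 0.002579) and Cyp4b1 at 1.004 (adjusted p = 0.008069). Cyp2f2 (-2.16, adjusted p = 0.0107) and Cyp2a5 (-3.56, adjusted p = 0.01671) were called lower there. In club-rich spots 75 genes were called, with Cyp2f2 at -4.99 (adjusted p = 0.02605), Cyp2a5 at -4.31 (adjusted p = 0.02697), Cyp2s1 at -3.51 (adjusted p = 0.03983) and Cyp26b1 at 2.89 (adjusted p = 0.007618). These values describe 1 V mouse each and moved with the airway, heart and alveolar content given above, whose part in them was not tested.

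**Figure D4:**
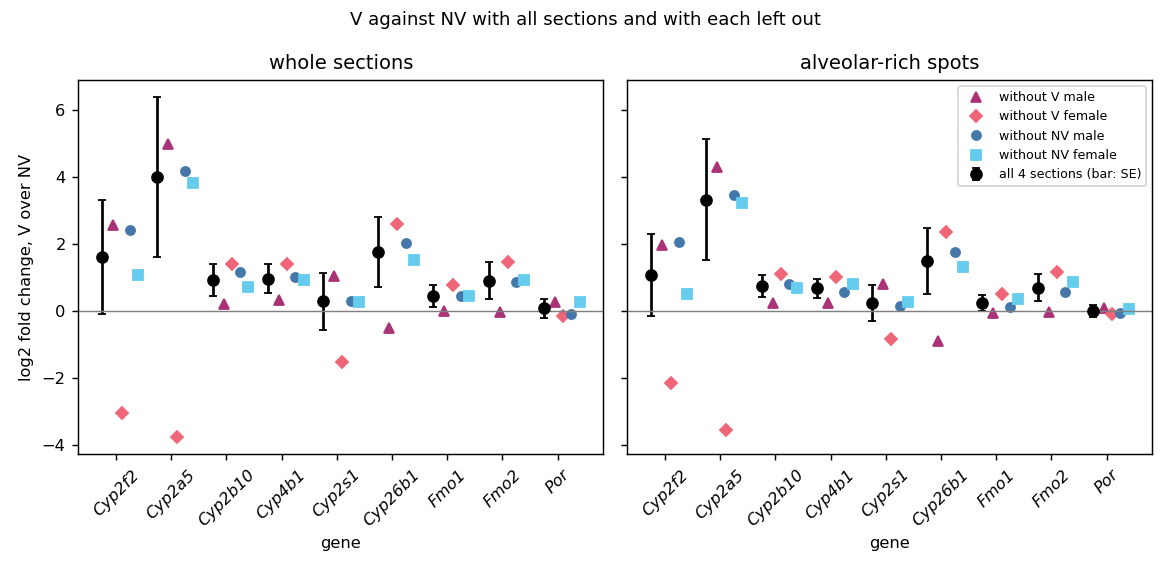
Log2 fold change of V over NV for each gene over whole sections and in alveolar-rich spots, with all 4 sections (black, bar for the SE) and with each section left out. Leaving out the V female turns Cyp2f2, Cyp2a5 and Cyp2s1 below 0, and leaving out the V male brings Cyp2b10, Cyp4b1, Cyp26b1, Fmo1 and Fmo2 down to 0.32 or less over whole sections.

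The V female and the NV male were set side by side in spots grouped by Scgb1a1 level, as a description of 2 libraries chosen after their values were seen. The part of club cell content in the differences was not tested. Over whole sections their Scgb1a1 levels were close (11518 and 12429 CPM), while Cyp2f2 was at 1013 and 262 CPM and Cyp2a5 at 386 and 14.4 CPM. In spots with 3000 to 10000 CPM of Scgb1a1, the level also found in cardiac muscle-rich spots, Cyp2f2 was at 440 CPM over 1717 spots of the V female and at 142 CPM over 626 spots of the NV male, 3.10-fold apart, and Cyp2a5 at 128 and 8.62 CPM, 14.9-fold apart. In spots with 10000 to 30000 CPM the gaps were 9.24-fold for Cyp2f2, 23.5-fold for Cyp2a5 and 3.20-fold for Cyp2s1, over 172 and 137 spots. Above 30000 CPM, where the NV male had only 19 spots, they were 2.02-fold, 33.3-fold and 1.37-fold. Scgb1a1 itself was not equal within these groups. From the lowest group to the highest it was at 5656, 16217 and 83157 CPM (V female) and at 6738, 12853 and 153059 CPM (NV male). Per 1000 Scgb1a1 UMIs of club-rich spots, Cyp2f2 had 21.1 UMIs (NV male), 24.9 UMIs (NV female), 37.5 UMIs (V male) and 92.7 UMIs (V female). Over whole sections the same ratio was 21.1, 47.4, 92.1 and 87.9, and in alveolar-rich spots 19.9, 51.6, 109 and 67.0, where the V male was the highest.

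The NV female had only 2 spots above 30000 CPM of Scgb1a1, and these held 197 of its 695 Cyp2f2 UMIs and 46 of its 77 Cyp2a5 UMIs. Cyp2f2 was at 8693 CPM in those 2 spots, above the 6392 CPM of the V female, and Cyp2a5 at 2030 against 3300 CPM. In spots with 1000 to 3000 CPM of Scgb1a1, Cyp2f2 was at 77.1 CPM (NV male), 70.6 CPM (NV female), 67.2 CPM (V male) and 199 CPM (V female). The V male was close to the NV sections in these spots, on 13 UMIs over 39 spots.

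**Figure D5:**
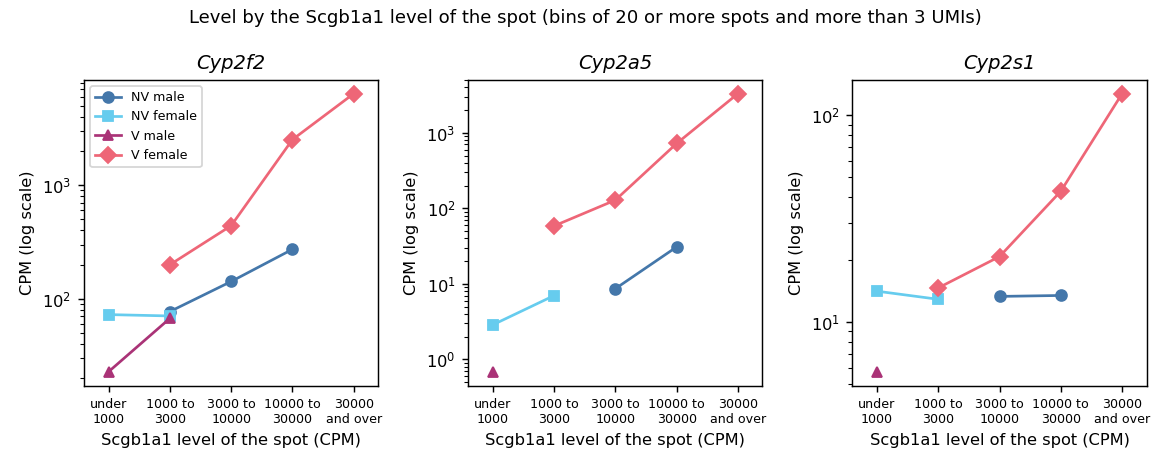
Level of Cyp2f2, Cyp2a5 and Cyp2s1 (CPM, log scale) in spots grouped by their Scgb1a1 level (CPM), with a line per section. Groups of 20 or more spots and over 3 UMIs are shown, and in the 3 where both have a point for Cyp2f2 the V female lies 2.58-fold to 9.24-fold above the NV male.

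The balance between the 2 club cell P450 genes also differed between sections. Per 100 Cyp2f2 UMIs of the whole section, Cyp2a5 had 5.49 UMIs (NV male), 11.1 (NV female), 4.24 (V male) and 38.1 (V female). In club-rich spots it had 5.25, 23.3, 15.2 and 44.2, the V male value on 5 UMIs. Cyp2a5 shares 48.2% of its 31-base words with the coding gene Cyp2a4 (20.9% over the last 500 bases, the end that Visium reads), which had 6 UMIs in all, and reads from shared stretches could be lost from both. Cyp2b10 shares 14.6% with Cyp2b13 (8 UMIs) and Cyp4b1 7.52% with the pseudogene Cyp4b1-ps2, and the other 6 genes share none with another gene of these families.

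Of 100 other P450 and flavin monooxygenase genes, 26 passed the filter over whole sections and 0 were called between V and NV, and of 14 partners and regulators 12 passed and 0 were called. Cyp2e1, the ethanol-oxidising P450, had the highest mean level of the 100, at 95.8 CPM (NV male), 655 CPM (NV female), 3.54 CPM (V male) and 172 CPM (V female). Cyb5a, cytochrome b5, which passes electrons to some P450 enzymes, was even, at 343, 394, 442 and 412 CPM. Between club-rich and alveolar-rich spots Cyp2e1 was called higher in club-rich spots (log2 fold change 0.82, SE 0.18, edgeR adjusted p = 0.04678), and 0 of 12 partners and regulators were called.

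Between Sftpc-rich and Cldn5-rich spots 0 of 12 other P450 and flavin monooxygenase genes were called, and 2 of 11 partners and regulators were lower in Sftpc-rich spots, the aryl hydrocarbon receptor Ahr (-0.53, SE 0.13, edgeR adjusted p = 0.01124) and the heme-binding Pgrmc1 (-0.35, SE 0.08, adjusted p = 0.003317). Cyp1a1, a target of Ahr, was at 116 CPM (V male) and at 2.16 to 4.63 CPM in the other sections. The 8 P450 and flavin monooxygenase genes among the 9 made up 79.1% of the UMIs of these families in the NV male, 58.2% (NV female), 86.6% (V male) and 83.4% (V female).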

How the data were processed

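The deposited files hold 1 table of UMI counts for each section, with genes in one direction and spots over tissue in the other, which the authors made with Space Ranger against the 10x mouse reference for mm10 (GRCm38) and did not normalize. Their normalization in Seurat 4.0.3 is not part of these counts. UMIs were summed per section or per class of spots with at least 1000 UMIs. The quasi-likelihood test of edgeR 4.0.16 (R 4.3.3) was run on these sums after filterByExpr and TMM scaling, with the section as a block where both classes came from each section. Calls needed an adjusted p (Benjamini-Hochberg, over all genes tested) under 0.05 and a log2 fold change beyond 0.25 either way. Each SE was computed as the log2 fold change divided by the square root of F. DESeq2 1.42.0 was an alternative, with other scalings, filters, class sizes, spot minimums and each section left out. The edgeR test was also run on simulated counts in which 200 genes were set 2 log2 units apart. It found 93.5% of them with 4 false calls in the layout of whole sections. In the layout of club-rich against alveolar-rich spots it found 94% with 7 false calls. Beyond counting error, the fitted coefficient of variation between real whole sections was 0.394, above that set in the simulation. For club-rich against alveolar-rich spots it was 0.118, below that set. The simulation therefore does not give the power of the V against NV comparisons. The members, lists and tests were chosen with earlier results of these data known. The study's test over spots was not used, since spots of a section are not replicates. The genes named were the 9 members, the markers, the 3 genes most like each member over spots and, of the other P450, flavin monooxygenase and partner genes, those called or highest. Named apart from that rule, after its values were seen, was Cyp1a1. A result of the list of other P450 and flavin monooxygenase genes is not reported here.

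Totals of 6957392 to 34308556 UMIs set the precision. A count of 3 UMIs, the least read as a level, is 0.431 CPM in the section with the fewest UMIs. Poisson intervals cover counting error only. Spot barcodes mark slide positions, and 233 were shared by all sections. Groups of spots by Scgb1a1 level and the alternatives of the interaction were added after the data were seen. Positions and transcripts are from GENCODE vM21, promoters from RefSeq (GRCm38.p6). Python 3.11.15 was used for sums and figures.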

Additional observations from a re-analysis of the deposited data

Results flagged for a closer look

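In 6 of the 9 genes the V mouse differed from the NV mouse of the same sex in opposite directions in males and females. So did 50.4% of the 14570 genes tested over whole sections. With 1 mouse per sex and group this difference was not tested, and sex cannot be told apart from the content of the sections. The log2 ratio of V over NV over whole sections was -3.46 in males and 3.34 in females for Cyp2f2, -3.83 and 5.12 for Cyp2a5, and -1.41 and 0.99 for Cyp2s1. It was 2.51 and -0.28 for Cyp26b1, 0.92 and -0.06 for Fmo1, and 1.63 and -0.14 for Fmo2. The 95% Poisson intervals of the NV female and the V female overlap for Fmo1 and for Cyp26b1. Scgb1a1 was lower in the V male than in the NV male and higher in the V female than in the NV female, in the direction of the first 3 genes.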

How the results depend on the processing

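The calls of Cyp2f2 and Cyp2a5 higher in club-rich spots and of Cyp4b1 lower in Sftpc-rich spots held under all alternatives run. Calls of Cyp2s1 with the upper 20% of spots and of Fmo1 by DESeq2 were lost, as given above. DESeq2's Wald test called 8 genes between V and NV over whole sections, 7 in alveolar-rich spots, 78 between club-rich and alveolar-rich spots and 71 between Sftpc-rich and Cldn5-rich spots. Without a filter on low counts 60 genes were called between V and NV in alveolar-rich spots, 66 in club-rich spots, 947 between club-rich and alveolar-rich spots and 7 in the interaction. The upper 20% of spots gave 41 genes between club-rich and alveolar-rich spots, and club-rich spots against all other spots 406. The cause of these changes was not tested.

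Small values changed sign. Por in alveolar-rich spots was 0.010 without the filter and 0.020 by Cldn5 alone. Between club-rich and alveolar-rich spots Cyp4b1 was 0.0138 with DESeq2's size factors, 0.0142 by its test, 0.10 with the upper 5% of spots and 0.24 against all other spots, where Cyp2b10 was 0.18 and Fmo2 0.020. With the replicate block (the number marks the sex) Cyp2f2 was -0.074 over whole sections and -1.15 in club-rich spots, and Cyp2s1 -0.20 and -0.69, with no gene called. Deviations of same-numbered sections correlated at 0.323 over 14570 genes, but 2 pairs do not show a pairing.

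With each section left out in turn, genes called between V and NV ranged from 0 to 811 over whole sections, 0 to 679 in alveolar-rich spots and 0 to 522 in club-rich spots, those between club-rich and alveolar-rich spots from 19 to 372, between Sftpc-rich and Cldn5-rich spots from 142 to 217, and in the interaction from 0 to 315 (without the V male). The log2 fold changes over whole sections ranged from -3.06 to 2.56 for Cyp2f2, -3.78 to 4.99 for Cyp2a5, -1.53 to 1.04 for Cyp2s1, -0.50 to 2.60 for Cyp26b1, -0.045 to 1.47 for Fmo2 and -0.16 to 0.28 for Por. In alveolar-rich spots they ranged from -2.16 to 2.06 for Cyp2f2, -3.56 to 4.30 for Cyp2a5, -0.84 to 0.80 for Cyp2s1, -0.89 to 2.36 for Cyp26b1, -0.072 to 0.49 for Fmo1, -0.021 to 1.175 for Fmo2 and -0.081 to 0.076 for Por. In club-rich spots they ranged from -4.99 to 2.20 for Cyp2f2, -4.31 to 4.34 for Cyp2a5 and -3.51 to 0.94 for Cyp2s1, and between club-rich and alveolar-rich spots from -0.13 to 0.12 for Cyp2b10 and -0.050 to 0.078 for Cyp4b1.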
